A study of Mus musculus with 30 samples.

Results

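The 7 immediate early genes Egr1, Egr2, Nr4a1, Fos, Fosb, Jun and Junb were followed in sorted CD4+ T cells of BDC2.5 transgenic NOD mice. The members were all probe sets whose single gene symbol was one of these names, which gave 10 probe sets for 7 of the 8251 genes named alone on the array. The data were 30 one-colour Affymetrix MG-U74Av2 arrays of polyA RNA, given here as log2 intensity. The series title sets pancreatic regulatory T cells (Treg) against effector T cells (Teff), and the lymph node arrays set CD25+ against CD25- cells. Every group was of the NOD strain, a mouse model of autoimmune diabetes, and carried BDC2.5, a T cell receptor transgene directed against islets, so that many of the sorted cells carry the same receptor.

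Pancreatic cells came from infiltrated pancreas of mice treated with an antibody against ICOS, a costimulatory receptor of T cells (3 Treg arrays sorted as CD4+CD25+ and 3 Teff arrays sorted as CD4+CD25-, mice aged 26 days) or from mice given control IgG. The IgG Treg cells were gated CD4+CD25+CD69-. They comprised 3 arrays in a first set of records with no age given and 2 arrays in a second set, 1 from mice aged 4 weeks and 1 from mice aged 26 days. The IgG Teff cells (5 arrays, no age given) were gated CD25 low or negative with either CD69 state. Node cells came from mice aged 4 weeks for which no treatment is named: 5 CD25+ and 3 CD25- arrays of mesenteric nodes and 3 CD25+ and 3 CD25- arrays of peripheral nodes. CD69 is itself an early activation marker, and this gate removed the cells that carried it from the IgG Treg samples. The anti-ICOS gates name no CD69 state, so treatment and gate cannot be told apart, and Cd69 was not measured by a probe set named for it alone. The tissue entry of every peripheral array reads mesenteric, and 1 array titled mesenteric CD25+ (replicate 2) has a source name that reads CD25-; groups here follow the titles. Il2ra, which encodes CD25, was 5.50 in that array and 5.34 to 6.23 in the other mesenteric CD25+ arrays, against 4.08 to 4.11 in mesenteric CD25- cells.

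Immediate early genes are switched on within minutes of a stimulus by factors already present in the cell, without new protein synthesis. In T cells, antigen receptor signals reach them through the ERK kinases, serum response factor and calcium signalling. Their products are themselves transcription factors that set the next wave of genes. They also respond to the handling and digestion of tissue.

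Array medians within each record set spanned at most 0.0972 on the log2 scale. By the array numbers that the labels give, arrays were grouped into 5 runs, called A to E here. The labels do not say whether replicates are separate animals; the p values cover only the spread among these arrays, which may be technical. The T cell marker Cd3e lay between 7.86 and 9.05 in the 30 arrays. Anti-ICOS Treg replicate 3 stood apart, with Il2ra at 3.88, against 5.0 and 7.03 in the other anti-ICOS Treg arrays and 3.68 to 3.82 in anti-ICOS Teff cells. IgG Treg replicate 1 of the second set stood apart in the myeloid gene Lyz2, at 9.12, against 2.73 to 5.55 in the other 29 arrays. IgG Treg replicate 3 of the first set and replicate 2 of the second carry the same array number and correlate at 0.997, and they count as 1 array wherever both sets enter a fit. In these bulk samples, fewer cells expressing a gene and less RNA per cell cannot be told apart.

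Promoter sequences are shown for the pair of members that differed between node sites, Egr2 and Nr4a1, and for Fos, whose values varied most among replicates of 1 group. Each window runs from 250 bases before to 50 after an annotated gene start (RefSeq, GRCm38.p6), and 6 of the 7 members (all but Egr1) were matched to windows in that table. Capitals mark a motif found by a search of both strands for 4 motifs: the CArG box (bound by serum response factor), the cyclic AMP response element TGACGTCA, the AP-1 element TGANTCA and the Egr element GCGNGGGCG.
Egr2, chr10:67537619-67537918, plus strand: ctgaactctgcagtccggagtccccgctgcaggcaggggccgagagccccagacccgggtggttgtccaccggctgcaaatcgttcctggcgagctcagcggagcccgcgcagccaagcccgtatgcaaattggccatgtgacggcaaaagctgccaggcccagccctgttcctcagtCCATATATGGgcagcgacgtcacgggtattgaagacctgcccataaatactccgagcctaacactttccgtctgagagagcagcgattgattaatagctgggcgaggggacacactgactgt
Nr4a1, chr15:101266596-101266895, plus strand: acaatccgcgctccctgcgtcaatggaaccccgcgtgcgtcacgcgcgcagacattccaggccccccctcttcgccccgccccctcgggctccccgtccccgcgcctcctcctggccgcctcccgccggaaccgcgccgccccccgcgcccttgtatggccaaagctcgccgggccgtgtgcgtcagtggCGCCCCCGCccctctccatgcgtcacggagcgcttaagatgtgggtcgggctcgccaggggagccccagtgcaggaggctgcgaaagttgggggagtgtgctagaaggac
Fos, chr12:85473640-85473939, plus strand: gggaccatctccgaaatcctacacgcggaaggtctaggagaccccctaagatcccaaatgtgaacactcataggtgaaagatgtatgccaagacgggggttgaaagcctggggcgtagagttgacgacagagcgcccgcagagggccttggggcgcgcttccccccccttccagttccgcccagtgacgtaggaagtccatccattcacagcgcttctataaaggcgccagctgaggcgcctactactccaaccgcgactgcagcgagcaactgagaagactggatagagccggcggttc
The Egr2 window held a CArG box that started 72 bases before the gene start. Of the 5 Egr2 windows in the table, 4 held a CArG box. The overlapping windows among them share the same site, CCATATATGG, and the remaining window holds CCTTTTTTGG. The Nr4a1 window held an Egr element on the minus strand, where it reads CGCCCCCGC on the printed strand, 60 bases before the start. None of the 4 motifs was found in the Fos, Jun and Junb windows, and Fosb held an Egr element. No match overlapped another motif in these windows. Of 32544 promoter windows of the same length, 1.64% held a CArG box, 1.8% the cyclic AMP response element, 7.79% the AP-1 element and 5.6% the Egr element. A match describes these letters only.

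In CD25- cells of the lymph nodes, Egr2 and Nr4a1 were lower in mesenteric than in peripheral nodes. Egr2 was also lower in CD25+ than in CD25- cells at both sites, and Nr4a1 was higher in CD25+ cells of mesenteric nodes. The plot of node arrays shows each value.

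Egr2 encodes a zinc finger factor that, with its relatives, restrains T cell activation and takes part in anergy. In mesenteric CD25- cells it was 7.41, 7.34 and 7.41, against 8.34, 8.71 and 8.29 in peripheral CD25- cells. Every mesenteric array lay below every peripheral one. Egr2 was 2.09-fold lower in mesenteric than in peripheral CD25- cells (log2 difference -1.06, SE 0.19, limma, adjusted p = 0.0195 over all probe sets). Nr4a1 encodes the orphan nuclear receptor Nur77, whose level in T cells follows the strength of antigen receptor signals. It was 5.75, 5.38 and 5.98 in mesenteric CD25- cells and 6.53, 6.91 and 7.16 in peripheral CD25- cells, again without overlap. The Nr4a1 difference was -1.16 (SE 0.22, limma, adjusted p = 0.0273), a 2.24-fold lower intensity in mesenteric cells. Of all 12422 probe sets, 0.451% passed the threshold of 0.05 in this comparison, 0.209% as higher and 0.242% as lower in mesenteric cells, against 2 of the 10 member probe sets. Within run D the differences were -0.94 for Egr2 and -1.28 for Nr4a1, and within run E -1.31 and -0.93 in the same order of genes.

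The other 5 members differed by less than 1 SE between the CD25- cells of both sites. Egr1, the founding member of the Egr family, averaged 9.32 ± 0.33 in mesenteric and 9.42 ± 0.25 in peripheral CD25- cells (SD, n = 3 each), and the 95% confidence interval of its difference reached from -0.84 to 0.62. Of the 19 measured among 26 other immediate early genes, none passed in this comparison, nor did any of 11 AP-1 partners or 12 genes of the ERK, serum response factor and Egr pathway. The medians over these lists were -0.04, 0.12 and -0.03, against -0.01 over all probe sets. Ctla4, an inhibitory receptor of activated and regulatory T cells, was lower in mesenteric CD25- cells (log2 difference -1.71, limma, adjusted p = 0.000249), the 1 called gene among 7 measured Treg markers. The summed intensity of those markers was 318 to 373 in mesenteric CD25- arrays, against 409 to 524 in peripheral CD25- arrays. Of 12 T cell activation genes and 11 heat shock genes measured, none passed, with medians of -0.13 and -0.08. The activation genes summed to 648 to 720 in mesenteric and 756 to 812 in peripheral CD25- arrays. The heat shock genes summed to 2935 to 3279 in mesenteric and 3324 to 4071 in peripheral CD25- arrays. All 3 sums were lower in mesenteric cells without overlap, and the part of these lists in the Egr2 and Nr4a1 differences was not tested.

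These calls rested on few arrays. Among the fits that left out 1 CD25- array, Egr2 passed without peripheral replicate 1 or 3. It gave adjusted p values of 0.0885, 0.0991 and 0.0773 without mesenteric CD25- replicates 1, 2 and 3 and 0.15 without peripheral CD25- replicate 2 (limma). Nr4a1 gave 0.112 and 0.178 without mesenteric CD25- replicates 1 and 2, and 0.154 and 0.17 without peripheral CD25- replicates 2 and 3. The direction was the same in each of these fits. With the actin 3'/5' ratio, a measure of RNA integrity and amplification, as a covariate, Nr4a1 reached an adjusted p of 0.0534 and Egr2 one of 0.0373. That log2 ratio averaged 2.63 ± 0.050 in mesenteric and 2.54 ± 0.20 in peripheral CD25- cells (SD, n = 3 each).

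In CD25+ cells, none of the 10 member probe sets passed between mesenteric and peripheral nodes, where 0.0725% of all probe sets did. Nr4a1 averaged 6.61 ± 0.29 in mesenteric CD25+ cells (n = 5) and 6.61 ± 0.29 in peripheral CD25+ cells (n = 3), and the interval of the difference ran from -0.43 to 0.41. Egr2 averaged 6.75 ± 0.27 in mesenteric and 6.89 ± 0.36 in peripheral CD25+ cells, with an interval of -0.51 to 0.22. Fos, at 5.92 ± 0.46 and 5.44 ± 0.88 in the same order, gave the widest interval, -0.36 to 1.34. The test of whether the site difference itself differed between CD25+ and CD25- cells passed for no member, and 0.00805% of all probe sets passed it. Its estimate was 1.15 for Nr4a1 (SE 0.29, limma, adjusted p = 0.62) and 0.92 for Egr2 (SE 0.26, adjusted p = 0.921), so the site effects are not shown to differ between the sorted populations.

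**Figure D1:**
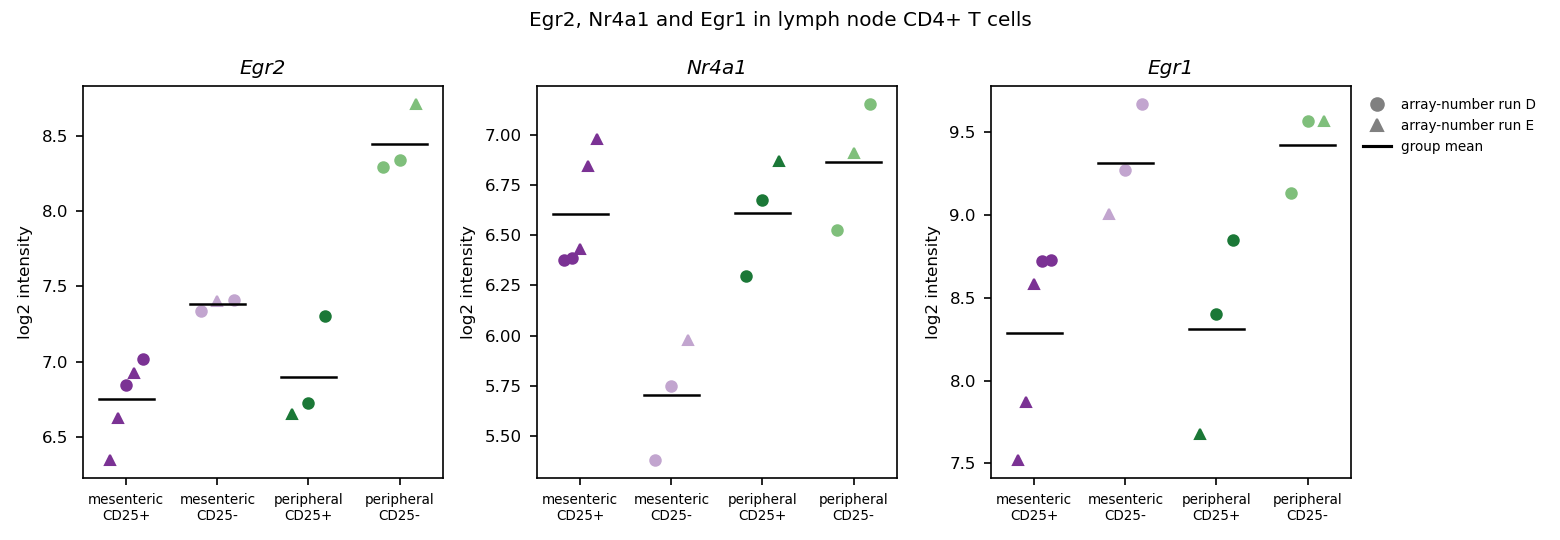
Log2 intensity of Egr2, Nr4a1 and Egr1 in each of the 14 lymph node arrays, by site and sort; circles are array-number run D, triangles run E, and black bars are group means. Mesenteric CD25- cells lie below peripheral CD25- cells in Egr2 and Nr4a1 without overlap, and Egr1 is lower in CD25+ than in CD25- cells at both sites.

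CD25+ cells of mesenteric nodes, set against CD25- cells of the same nodes, had more Nr4a1 and less Egr1 and Egr2. Nr4a1 was 6.38, 6.39, 6.43, 6.98 and 6.85 in mesenteric CD25+ cells, against 5.75, 5.38 and 5.98 in mesenteric CD25- cells. The groups did not overlap, and Nr4a1 rose 1.87-fold in CD25+ cells (log2 difference 0.90, SE 0.19, limma, adjusted p = 0.00813). Egr1 was 8.72, 8.73, 8.59, 7.52 and 7.87 in CD25+ cells, against 9.27, 9.67 and 9.01 in CD25- cells. It fell 2.04-fold (log2 difference -1.03, SE 0.30, adjusted p = 0.0407), with replicates 4 and 5 of the CD25+ cells lowest. Egr2 was 6.85, 7.02, 6.93, 6.34 and 6.63 in CD25+ cells, against the 7.34 to 7.41 of CD25- cells, and fell 1.55-fold (log2 difference -0.63, SE 0.17, adjusted p = 0.0265). Of all probe sets, 12.2% passed this comparison, 4.66% as higher and 7.53% as lower in CD25+ cells, against 1 and 2 of the 10 member probe sets.

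The AP-1 members did not pass in mesenteric nodes. Fos, which pairs with Jun proteins to form AP-1, was 5.49, 6.10, 6.54, 5.43 and 6.06 in CD25+ cells, against 6.48, 5.91 and 7.51 in CD25- cells. The groups overlapped (log2 difference -0.71, SE 0.39, limma, adjusted p = 0.299). Fosb, Jun and Junb differed by less than 1 SE; Fosb ranged from 5.34 to 5.65 in CD25+ cells and from 5.48 to 5.60 in CD25- cells. The median difference over the 7 genes was -0.03, against 0.04 over all probe sets.

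Within run D the mesenteric differences were 0.82 for Nr4a1, -0.75 for Egr1 and -0.44 for Egr2, and within run E they were 0.77, -1.01 and -0.77 in the same order of genes. Quantile normalization kept only Nr4a1 past the threshold, with adjusted p values of 0.0764 for Egr1 and 0.0614 for Egr2, and so did the actin covariate (0.122 and 0.0607). The actin log2 ratio averaged 2.85 ± 0.19 in mesenteric CD25+ (n = 5) and 2.63 ± 0.050 in CD25- cells (SD, n = 3). Nr4a1 lost its call without mesenteric CD25- replicate 2 (0.0603). Egr1 lost it without CD25- replicate 1 or 2 and without CD25+ replicate 4 or 5, with adjusted p values of 0.113, 0.193, 0.0784 and 0.0945. Egr2 lost it without each of CD25- replicates 1, 2 and 3 and CD25+ replicates 4 and 5, with 0.0969, 0.08, 0.0734, 0.0532 and 0.062. All 3 members passed without mesenteric CD25+ replicate 2, the array with the CD25- source name.

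Markers of other cells moved with the sort in mesenteric nodes. Of 12 markers of macrophages and dendritic cells, 3 class II genes passed as higher in CD25+ cells (Cd74, H2-Aa and H2-Ab1), and the summed intensity of the list was 754 to 1490 in CD25+ arrays, against 396 to 446 in CD25- arrays. Of 7 B cell markers, Blk and Cd79b passed as higher, with a summed intensity of 572 to 712 in CD25+ and 490 to 555 in CD25- arrays. The 4 CD8 and NK markers measured went the other way, with sums of 58.4 to 67.5 in CD25+ and 78.6 to 81.4 in CD25- arrays. In peripheral nodes their sums were 57.1 to 68.8 and 70.7 to 92.7 in the same order. Among mesenteric CD25+ arrays, replicate 4 had the highest Cd74 (8.38), the lowest Egr1 and Egr2 and the highest Nr4a1. The part of these cells in the differences was not tested.

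In peripheral nodes, CD25+ cells had less Egr2 than CD25- cells, and Egr1 and Fos were lower without passing the test. Egr2 was 7.31, 6.72 and 6.65 in CD25+ cells, against 8.34, 8.71 and 8.29 in CD25- cells. It fell 2.94-fold (log2 difference -1.55, SE 0.19, limma, adjusted p = 0.000333), and the call was kept in each fit that left out 1 array. Of all probe sets, 7.69% passed in this comparison, 1.8% as higher and 5.89% as lower, against 1 of the 10 member probe sets. Egr1 was 8.85, 8.40 and 7.68 in peripheral CD25+ cells and 9.57, 9.57 and 9.14 in CD25- cells. The groups did not overlap (log2 difference -1.11, SE 0.34, adjusted p = 0.0635). Fos was 4.90, 4.96 and 6.45 in CD25+ cells and 6.55, 7.15 and 6.71 in CD25- cells, where CD25+ replicate 3 came close to the CD25- arrays (log2 difference -1.37, SE 0.44, adjusted p = 0.0786). Nr4a1 was 6.29, 6.67 and 6.87 in CD25+ cells and 6.53, 6.91 and 7.16 in CD25- cells, which overlapped (log2 difference -0.25, SE 0.22, adjusted p = 0.57).

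With the run as a block, Egr1 and Fos passed in peripheral nodes (limma, adjusted p = 0.0236 and 0.018). Egr1 also passed without CD25+ replicate 1 (0.0207) and Fos without CD25+ replicate 3 (0.0177). The actin 3'/5' log2 ratio was 2.76 to 3.30 in peripheral CD25+ arrays and 2.32 to 2.70 in CD25- arrays (3.02 ± 0.27 and 2.54 ± 0.20, SD, n = 3 each), without overlap. With it as a covariate Egr2 gave -1.61 and kept its call (limma, adjusted p = 0.0125), and Egr1 gave -0.98 (0.446) and Fos -1.38 (0.384). Within run D the CD25+ minus CD25- differences were -1.30 for Egr2, -0.73 for Egr1 and -1.70 for Fos, and within run E, with 1 array a group, they were -2.06, -1.89 and -0.70 in the same order of genes. The second Egr1 and Fos probe sets, both dim, moved by less than 1 SE here (group means of 3.82 in both groups for Egr1, and of 3.38 in CD25+ and 3.43 in CD25- cells for Fos).

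Genes around the members in the same pathway also differed between CD25+ and CD25- cells. Dusp6, a phosphatase that inactivates ERK, fell at both sites, with a log2 difference of -2.11 in mesenteric CD25+ cells (SE 0.32, limma, adjusted p = 0.000974) and of -2.28 in peripheral ones (SE 0.36, adjusted p = 0.00163). Nfe2l2, a leucine zipper factor of the oxidative stress response, also fell at both sites, with differences of -1.50 and -1.27 in the same order. In mesenteric nodes 1 of 12 genes of the ERK, serum response factor and Egr list rose (Dusp1, 0.61) and 3 fell, among them Nab1, a co-repressor of Egr proteins, by 1.55. Of the 19 other immediate early genes measured, 4 rose in mesenteric CD25+ cells (Bhlhe40 by 1.12, Klf4 by 1.08, Nfkbia by 0.90, Klf6 by 0.47) and 3 fell (Zfp36, Rgs2, Btg2). In peripheral nodes 1 rose (Klf6, 0.77) and 1 fell (Zfp36, -0.41). The medians over these 19 genes were 0.16 in mesenteric and 0.08 in peripheral nodes, against 0.04 and 0.05 over all probe sets.

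Heat shock genes, which respond to cell stress, moved with the sort at both sites. Of 11 measured, 4 fell in mesenteric and 5 in peripheral CD25+ cells and none rose. Their summed intensity was 1896 to 2545 in mesenteric CD25+ arrays, against 2935 to 3279 in CD25- arrays, and 1905 to 2097 in peripheral CD25+ arrays, against 3324 to 4071 in CD25- arrays. Between sites the CD25- sums did not overlap either, lower in mesenteric cells as Egr2 and Nr4a1 were. The part of such stress in the Egr1, Egr2 and Fos differences between sorts, and in the Egr2 and Nr4a1 differences between sites, was not tested.

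In the pancreas of IgG-treated mice, no member passed between Treg and Teff cells, although Fos, Egr1 and Fosb were all lower on average in Treg cells. The Treg cells were gated CD69- and the Teff cells in either CD69 state, so cell type and CD69 gate cannot be told apart here. Of all probe sets 6.69% passed, 3.93% as higher and 2.76% as lower in Treg cells, against none of the 10 member probe sets. The median difference over the 7 genes was -0.38, against 0.03 over all probe sets. Fos was 7.73, 5.95 and 5.16 in Treg cells, against 8.02, 7.22, 7.55, 7.35 and 8.10 in Teff cells. Treg replicate 1 lay within the Teff range and the other Treg arrays below it. The difference was -1.37 (SE 0.47, 95% confidence interval -2.41 to -0.32, limma, adjusted p = 0.129) and -0.81 without Treg replicate 3, and the second Fos probe set differed by less than 1 SE. Egr1 was 9.28, 8.32 and 8.79 in Treg cells and 9.18, 9.33, 9.58, 9.51 and 9.30 in Teff cells (log2 difference -0.59, SE 0.19, adjusted p = 0.1). Egr2 was 9.05, 8.14 and 8.05 in Treg cells and 8.47, 8.70, 8.84, 8.99 and 8.55 in Teff cells (log2 difference -0.30, SE 0.22, adjusted p = 0.498). In both genes, as in Fos, Treg replicate 1 was the highest Treg array.

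Fosb, another Fos family protein, did not overlap between groups. It was 5.61, 5.87 and 5.78 in Treg cells and 5.93, 6.14, 6.15, 6.15 and 6.30 in Teff cells (log2 difference -0.38, SE 0.10, limma, adjusted p = 0.0595). Quantile normalization gave an adjusted p of 0.0458 and leaving out Teff replicate 1 gave 0.0391. Nr4a1 was 7.78, 6.96 and 7.60 in Treg cells and 7.79, 7.70, 7.87, 7.98 and 8.04 in Teff cells (log2 difference -0.43, SE 0.17, adjusted p = 0.184). Jun, the partner shared by AP-1 dimers, differed by less than 1 SE, and it was the 1 member too dim to pass a filter on low intensity in any of the 13 comparisons. Junb, a Jun family member, was 6.41, 6.91 and 6.53 in Treg cells, against 6.23 to 6.71 in Teff cells (log2 difference 0.24, SE 0.14, limma, adjusted p = 0.4). The dimmer Junb probe set was 5.26 to 5.43 in Treg and 5.04 to 5.22 in Teff cells. It was higher in Treg cells without overlap and did not pass.

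Leaving out IgG Treg replicate 1 moved the count of called members most. Without this array 3 of the 10 member probe sets passed: Fos at -2.09 (limma, adjusted p = 0.00259), Egr1 at -0.83 (0.0131) and Egr2 at -0.62 (0.0338). Leaving out Teff replicate 1 also moved the count, by the Fosb call given above. Over the whole array, fits that left out 1 array called from 450 probe sets (without Teff replicate 5) to 1000 (without Treg replicate 3), against 831 with all arrays. The fit without Treg replicate 1 lay within that range, and its own share is not given here. In Fos, Egr1 and Egr2 the array left out, Treg replicate 1, was the highest Treg array. Within run A, which holds that array, the Fos difference was 0.11, against -1.60 in run B and -2.56 in run C. The Egr1 difference was 0.02 in run A, -1.27 in run B and -0.61 in run C. The actin 3'/5' log2 ratio averaged 3.75 ± 0.76 in IgG Treg (n = 3) and 2.65 ± 0.31 in IgG Teff cells (SD, n = 5), and with it as a covariate Nr4a1 moved to -0.04. The part of RNA quality in these differences was not otherwise tested.

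Pathway genes did pass in the IgG pancreas. Dusp6 fell by 1.75 on the log2 scale in Treg cells (SE 0.20, limma, adjusted p = 0.000869) and Dusp2, a phosphatase of activated T cells, by 0.68 (adjusted p = 0.00216), which were 2 of 12 measured with none higher. Of 19 other immediate early genes, Rgs2 fell by 0.81 and Btg2 by 0.66 and Bhlhe40 rose by 0.65. Of 11 AP-1 partners, Batf rose by 0.66 and Nfe2l2 fell by 0.89. Of 11 heat shock genes, Dnajb1 fell by 0.56 and none rose, and the summed intensity of that list was 2636 to 4063 in Treg and 3810 to 4207 in Teff arrays. Of 7 B cell markers, Blk, Cd79b and Ighm passed as higher in Treg cells, with a summed intensity of 688 to 870 against 479 to 545 in Teff arrays. Of 4 erythroid markers 2 were measured, both with positive differences and neither called (median 0.82). Their sums were 2312 to 2886 in Treg and 471 to 2232 in Teff arrays, without overlap. The part of the cells behind both lists was not tested.

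**Figure D2:**
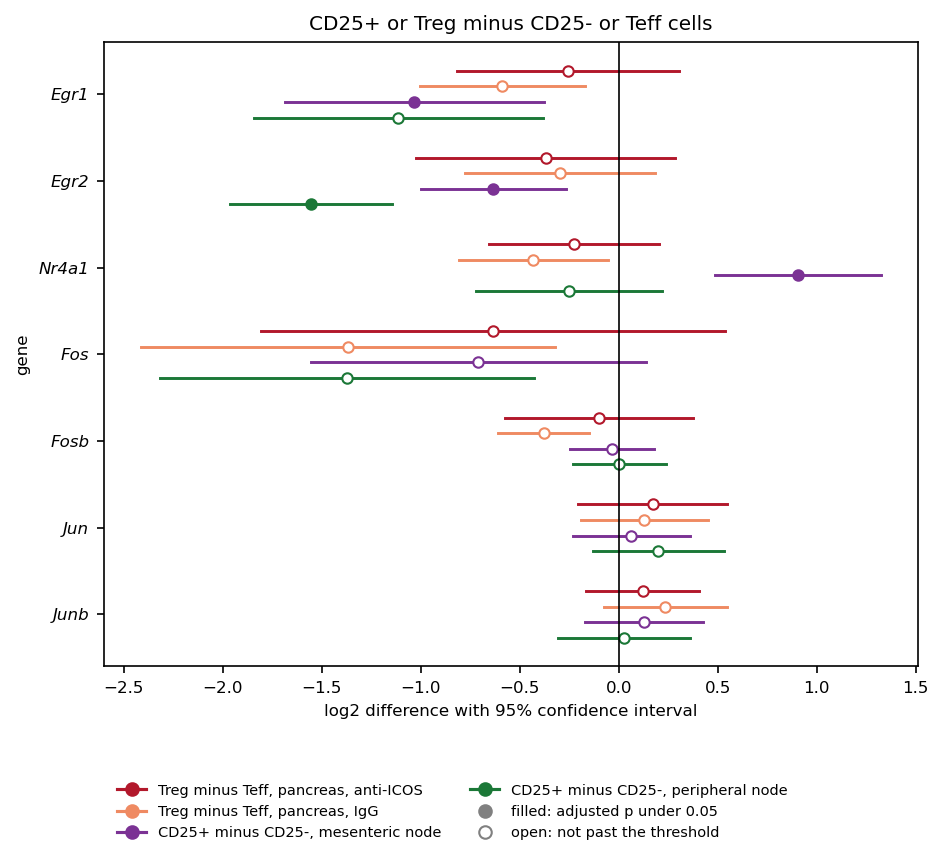
Log2 differences, with 95% confidence intervals, of the 7 genes for Treg minus Teff cells in the pancreas (anti-ICOS and IgG) and for CD25+ minus CD25- cells in mesenteric and peripheral nodes. Filled points passed an adjusted p of 0.05: Nr4a1, Egr1 and Egr2 in mesenteric nodes and Egr2 in peripheral nodes.

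After anti-ICOS treatment no probe set of the whole array passed between pancreatic Treg and Teff cells in limma, 0% called, and 209 (1.68%) had an unadjusted p under 0.05. Fos was 6.24, 6.40 and 8.38 in Treg cells and 7.37, 7.82 and 7.73 in Teff cells. Replicates 1 and 2 of the Treg cells lay below the Teff cells and replicate 3, the array with Il2ra at the Teff level, above them. The 7 Treg markers measured summed to 496 to 2581 in anti-ICOS Treg and 502 to 674 in anti-ICOS Teff arrays. The lowest Treg array thus lay below every Teff array in that sum. The Fos difference was -0.63 (SE 0.51, interval -1.81 to 0.54) with all arrays and -1.32 without Treg replicate 3, where 12 probe sets of the array passed and no member did. Within run A it was -1.35 and within run B -1.33. Egr2 was 8.14, 8.38 and 8.41 in Treg cells and 8.09, 9.13 and 8.81 in Teff cells, with an interval of the difference of -1.02 to 0.29. Egr1 was 8.28, 8.78 and 9.05 in Treg cells and 8.52, 9.24 and 9.12 in Teff cells (interval -0.82 to 0.30), and Nr4a1 was 7.40, 7.76 and 7.97 in Treg cells and 7.88, 7.84 and 8.07 in Teff cells (interval -0.65 to 0.21). The actin 3'/5' log2 ratio was 2.45 to 4.06 in Treg and 2.16 to 2.41 in Teff arrays, without overlap, and with it as a covariate the Fos difference was -0.39.

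Anti-ICOS and IgG Treg cells of the second record set also showed no called probe set in limma, 0% called, with 425 (3.42%) at an unadjusted p under 0.05. Fos was 6.24, 6.40 and 8.38 in anti-ICOS Treg cells and 5.35 and 4.91 in IgG Treg cells of that set. The groups did not overlap, and Fos was 3.67-fold higher on average (log2 difference 1.88, SE 0.57, interval 0.57 to 3.19, adjusted p = 0.893). The difference was 1.19 without anti-ICOS replicate 3 and 2.09 without IgG replicate 1, the array high in Lyz2. With the run as a block it was 3.47 and passed (limma, adjusted p = 0.0476); that fit rests on the 2 arrays of run C, since no other run held both groups in this set, and 1 of them is anti-ICOS replicate 3. When the IgG Treg arrays of both sets were fitted jointly, it was 1.01 (adjusted p = 0.527). Within single runs of that joint scale Fos differed by -1.39 in run A, 0.52 in run B and 3.34 in run C, with 1 array a group in each.

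Egr2 was 8.14, 8.38 and 8.41 in anti-ICOS Treg cells and 7.22 and 7.91 in IgG Treg cells of the second set, without overlap (log2 difference 0.74, SE 0.32, limma, adjusted p = 0.893). In the joint fit it was 0.11, and with the run as a block there -0.10. Nr4a1 was 7.40, 7.76 and 7.97 in anti-ICOS and 7.12 and 7.55 in IgG Treg cells (log2 difference 0.37, SE 0.21, adjusted p = 0.893). Of 11 heat shock genes, all 11 had positive differences and none passed, with a median of 0.61 against -0.05 over all probe sets. Their summed intensity was 3850 to 4494 in anti-ICOS and 1507 to 3969 in IgG Treg arrays, so that the groups overlapped. Of 4 erythroid markers, the 2 measured had a median of -2.69 and neither passed. They summed to 98.9 to 2418 in anti-ICOS and 2917 to 10164 in IgG Treg arrays, without overlap. The 6 islet markers measured, none called, summed to 224 to 292 in anti-ICOS and 317 to 328 in IgG Treg arrays, also without overlap. The part of these genes and cells in the Fos, Egr2 and Nr4a1 values was not tested.

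Teff cells of anti-ICOS and IgG mice, fitted jointly over 15 pancreatic arrays, gave no called probe set in limma, 0% called, with 512 (4.12%) at an unadjusted p under 0.05. All anti-ICOS Teff arrays lie in the second record set and all IgG Teff arrays in the first, and their gates differ. Treatment, record set, processing and gate thus cannot be told apart. Egr1 averaged 8.94 ± 0.26 in anti-ICOS Teff (n = 3) and 9.36 ± 0.12 in IgG Teff cells (SD, n = 5). The groups did not overlap (log2 difference -0.43, SE 0.19, adjusted p = 0.999), and within runs A and B it was -0.39 and -0.46. Of 6 granulocyte and 6 islet markers measured none passed. With each record set on its own scale, they summed to 124 to 145 and 233 to 268 in anti-ICOS Teff arrays. In IgG Teff arrays the sums were 153 to 172 and 272 to 345. Array medians were 27.9 to 29.8 in the second set and 32.5 to 34.5 in the first, so these sums cannot be set against each other. The part of these markers was not tested. Junb averaged 6.15 ± 0.088 and 6.32 ± 0.18 in the same order (log2 difference -0.17, SE 0.13). Egr2, Nr4a1, Fos, Fosb and Jun differed by less than 1 SE, and the interval for Fos, -1.12 to 1.19, was the widest of the 7. The test of whether the treatment difference was unlike in Treg and Teff cells passed for no probe set, 0% called, with 327 (2.63%) at an unadjusted p under 0.05. Its Fos estimate was 0.98 (SE 0.78, interval -0.69 to 2.64).

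**Figure D3:**
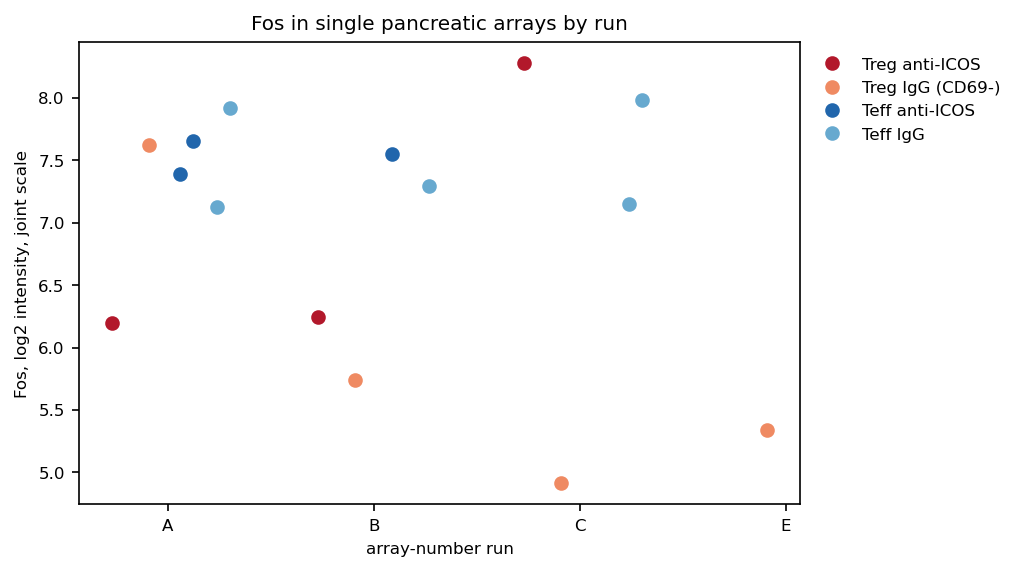
Fos in each of the 15 distinct pancreatic arrays on the joint log2 intensity scale, by array-number run. Treg arrays lie below the Teff arrays of their run except in IgG Treg in run A and anti-ICOS Treg in run C; run E held 1 IgG Treg array and no Teff array.

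Set against the mean of both node sites, pancreatic cells had more Egr2 and Nr4a1. These fits joined separately processed record sets. The pancreatic mice had control IgG and no age given, and the node mice a stated age and no named treatment. The pancreatic Treg cells were gated CD69-, and the node titles name no CD69 state. Tissue, record set, processing, treatment, age and gate thus cannot be told apart. On that joint scale Egr2 averaged 8.26 ± 0.58 in pancreatic IgG Treg cells (n = 3), against 6.87 ± 0.29 in mesenteric (n = 5) and 7.07 ± 0.43 in peripheral CD25+ cells (SD, n = 3). It was 2.45-fold higher in pancreatic Treg cells than in node CD25+ cells (log2 difference 1.29, SE 0.20, limma, adjusted p = 0.000144), where 24.1% of all probe sets passed (12.1% as higher and 12% as lower), against 3 of the 10 member probe sets, 2 as higher and 1 as lower. This fit held only the IgG Treg arrays of the first set. On the joint scale of 29 arrays, Egr2 was 7.41 in IgG Treg replicate 1 of the second set, the array high in Lyz2. That array shared run E and the age of 4 weeks with node arrays. Its Egr2 value lay within the 6.78 to 7.59 of peripheral CD25+ arrays on that scale. In the fit, Nr4a1 was 1.42-fold higher in pancreatic Treg cells (log2 difference 0.50, SE 0.17, limma, adjusted p = 0.0371). It lost its call with median centring (0.0699) and without IgG Treg replicate 1 or 3, mesenteric CD25+ replicate 1, 2 or 3 or peripheral CD25+ replicate 1, with adjusted p values of 0.236, 0.107, 0.0546, 0.0541, 0.0503 and 0.078.

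In pancreatic IgG Teff cells Nr4a1 averaged 7.71 ± 0.12 (n = 5), against 5.86 ± 0.28 in mesenteric and 6.94 ± 0.27 in peripheral CD25- cells (SD, n = 3 each). It was 2.48-fold higher than in node CD25- cells (log2 difference 1.31, SE 0.15, limma, adjusted p = 9.4e-06), and 27% of all probe sets passed (13.3% as higher and 13.7% as lower), against 3 of the 10 member probe sets, 2 as higher and 1 as lower. Of those calls over the array, 49.4% were higher in pancreatic cells, and 32.8% with median centring in place of quantile normalization. Egr2 was 1.56-fold higher than the mean of both node sites (log2 difference 0.64, SE 0.18, limma, adjusted p = 0.0106). With median centring its adjusted p was 0.0686. It averaged 8.59 ± 0.19 in IgG Teff cells, against 7.43 ± 0.031 in mesenteric and 8.46 ± 0.14 in peripheral CD25- cells. IgG Teff and peripheral CD25- arrays overlapped, at 8.37 to 8.84 and 8.34 to 8.61, so the difference lay mainly against mesenteric cells. The Junb probe sets disagreed in both comparisons. The dimmer one was called lower in pancreatic cells, by -0.34 in Treg cells (adjusted p = 0.000989) and -0.38 in Teff cells (adjusted p = 0.000165), while the brighter one had differences of 0.35 and 0.16 in the same order and did not pass. A direction for Junb therefore cannot be given. Fosb, Fos and Jun did not pass in either comparison.

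Markers of pancreatic tissue moved with these tissue differences. Of 9 exocrine pancreas markers 6 were measured, and Cel, Cela1 and Prss2, which encode digestive enzymes, passed as higher in pancreatic cells in both comparisons. Their list summed to 427 to 775 in IgG Treg and 425 to 587 in IgG Teff arrays, against 272 to 329 in node CD25+ arrays and at most 290.1 in node CD25- arrays, with each record set on its own scale. Array medians were 32.5 to 34.5 in the first pancreatic set and 25.3 to 27.1 in the node set, so the scales differ for every sum here. Islet markers summed to 339 to 379 in IgG Treg and 272 to 345 in IgG Teff arrays, against 204 to 265 in node CD25+ and 193 to 269 in node CD25- arrays. Both measured erythroid markers passed as higher in IgG Treg cells, with sums of 2312 to 2886, against 101 to 710 in mesenteric and 145 to 3051 in peripheral CD25+ arrays. Of 11 heat shock genes, 4 passed as higher and 2 as lower in IgG Treg cells. They summed to 2636 to 4063 there, against 1896 to 2545 in mesenteric and 1905 to 2097 in peripheral CD25+ arrays. In IgG Teff cells 1 passed as higher and 2 as lower. The part of these genes and cells in the Egr2 and Nr4a1 differences was not tested.

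The actin 3'/5' log2 ratio averaged 3.75 ± 0.76 in IgG Treg cells (n = 3), against 2.85 ± 0.19 in mesenteric (n = 5) and 3.02 ± 0.27 in peripheral CD25+ cells (SD, n = 3). With this ratio as a covariate, Egr2 and Nr4a1 kept their calls in Treg cells, at 1.21 and 0.72 (limma, adjusted p = 0.00859 and 0.0396). They also kept them in Teff cells, at 0.63 and 1.33 (adjusted p = 0.0142 and 1.02e-05).

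The Treg contrast itself was compared between tissues, as Treg minus Teff in the IgG pancreas less CD25+ minus CD25- in the nodes. No member passed, against 2.08% of all probe sets, 1.22% positive and 0.853% negative. Positive calls made up 58.9% of these, and 71.0% with median centring. Nr4a1 gave -0.81 (SE 0.23, limma, adjusted p = 0.0723), Egr2 0.65 (SE 0.26, adjusted p = 0.257) and Fosb -0.35 (SE 0.12, adjusted p = 0.173). Nr4a1 passed without IgG Treg replicate 1 (0.0286), mesenteric CD25- replicate 3 (0.0487) or peripheral CD25+ replicate 1 (0.0383). These comparisons share their arrays with the ones above, and the same factors, the CD69- gate among them, cannot be told apart. Of the pathway genes, Dusp2 (-0.83, adjusted p = 0.00662) and Klf6 (-0.72, adjusted p = 0.0231) passed.

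**Figure D4:**
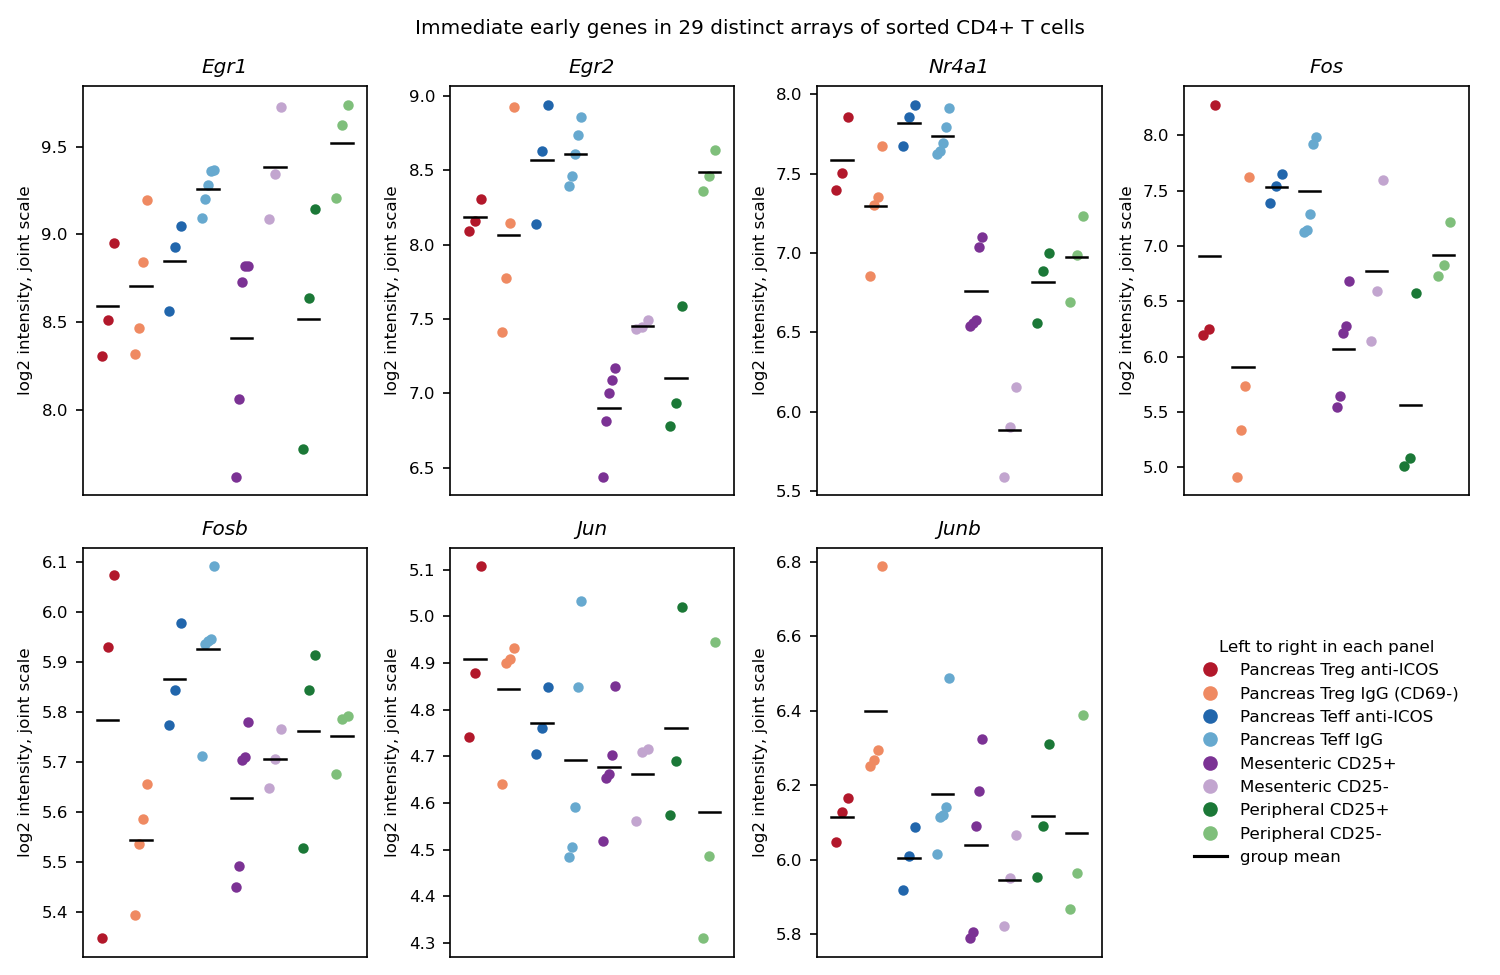
Log2 intensity of the 7 genes in 29 distinct arrays, quantile-normalized together, with the array deposited in both pancreatic sets averaged; points are arrays, bars are group means, and each panel has its own axis. In the order of group means, 6 of the 7 neighbouring pairs of groups overlap in Egr1, Egr2 and Nr4a1 and all 7 in the other genes. Fos spreads over more than 2 log2 units among the IgG Treg arrays and also among the anti-ICOS Treg arrays.

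Ranked on the joint scale of 29 arrays, every pair of neighbouring groups overlapped in Fos, Fosb, Jun and Junb, and 6 of 7 pairs in Egr1, Egr2 and Nr4a1. Nr4a1 was highest in Teff cells (anti-ICOS 7.82 ± 0.13, n = 3; IgG 7.74 ± 0.12, n = 5) and next in order in anti-ICOS Treg (7.59), IgG Treg (7.30), peripheral CD25- (6.97), peripheral CD25+ (6.82), mesenteric CD25+ (6.76) and mesenteric CD25- cells (5.88 ± 0.28, n = 3). Only the last pair of neighbours did not overlap. Egr2 ran from IgG Teff (8.61 ± 0.19) over anti-ICOS Teff (8.57), peripheral CD25- (8.49), anti-ICOS Treg (8.19), IgG Treg (8.07), mesenteric CD25- (7.46) and peripheral CD25+ (7.10) to mesenteric CD25+ cells (6.90 ± 0.29). Its 1 gap without overlap lay between peripheral CD25- and anti-ICOS Treg cells. Fos ran from anti-ICOS Teff (7.53 ± 0.13) and IgG Teff (7.49 ± 0.42) to IgG Treg (5.90 ± 1.19, n = 4) and peripheral CD25+ cells (5.56 ± 0.88), and each of its 7 pairs of neighbours overlapped. The same was true of Fosb, Jun and Junb, whose group means ranged over 0.38, 0.33 and 0.45 log2 units. Egr1 ran over 1.11 units, with 1 gap without overlap, between anti-ICOS and IgG Teff cells. The median SD within a group was 0.61 for Fos, 0.32 for Egr1, 0.24 for Egr2 and 0.25 for Nr4a1.

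Egr1 and Egr2 reached their highest value in the same array in 6 of 8 groups, and Egr1 and Nr4a1 in 2 of 8. Among 5496 probe sets with larger spread, the genes whose values were most like those of Egr1 over 29 arrays, centred within each record set, were Tgs1, St8sia4 and Ppp4r2 (Pearson r of 0.93, 0.92 and 0.90). For Fos they were Klrd1 (0.78), Btg1 (0.76) and Znrf2 (0.76), and for Jun Fth1 (0.66), Sprr2c-ps (0.63) and Usp25 (0.63). For the mean of the 7 genes they were Itm2a, Ugcg and Prkcb (0.81 for each). These coefficients describe arrays that share sorts and runs, and include differences between groups.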

How the data were processed

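The 7 genes and the gene lists were chosen with earlier results of these data known. The deposited values were linear intensities, 1 table for each of 3 record sets, made with RMA for the lymph node set and the second pancreatic set, per the submitters' processing notes (no version given); how the first set was processed is not given in the sources used. Per the labels' protocols, RNA was extracted from cells sorted by flow cytometry, and 2 rounds of amplification are named for some records. Of 12488 probe sets, 66 controls were left out and 12422 were tested as log2 intensity.

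Within a set the values were used as deposited; fits across sets were quantile-normalized jointly. The first-named group was set against its reference by a two-sided moderated test (lmFit, then eBayes, of limma 3.58.1 under R 4.3.3), with Benjamini-Hochberg adjustment over all 12422 probe sets and a threshold of 0.05; the code was tested on simulated data. An array deposited in both pancreatic sets (r = 0.997, against at most 0.988 for other pairs) was averaged and counted once in joint fits, which leaves 29 distinct arrays. For genes with several probe sets the brightest was used and the others are given where they differ. The number of arrays limits the precision. Named genes were the 7 members, called genes of the gene lists and the 3 genes most like a member. Differences under 1 SE are given without direction, a rule chosen after seeing the data. Replicate numbers were taken to pair samples only by a rule, with 3 or more pairs. Every same-numbered pair had to correlate above 0.1 in its deviations from the group means. This held for anti-ICOS Treg and Teff cells (0.59, 0.28 and 0.24), which are separate sorts with shared numbers in the titles. Only replicate 1 of these shares a run, so the rule does not show that the numbers pair samples. Alternatives were quantile normalization or median centring, a trended and robust fit, a filter on dim probe sets, the actin 3'/5' ratio as covariate, the run or replicate number as a block, and leaving out each array.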

Additional observations from a re-analysis of the deposited data

Results flagged for a closer look

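In groups of 4 or more arrays, 3 member values lay far from the rest of their group, of 30 groups of values tested, where chance flags about 1 in 20. Junb was 6.71 in pancreatic IgG Teff replicate 4, and the next of the 5 arrays was at 6.35 and the lowest at 6.23. On the joint scale of 29 arrays, Junb was 6.79 in IgG Treg replicate 2 of the first set, where the next array was at 6.29 and the lowest at 6.25. On the same scale, Jun was 4.64 in IgG Treg replicate 3 of the first set, below 4.90 in the next array and 4.93 in the highest. Leaving out any 1 of these arrays gave no call for Jun or Junb between IgG Treg and Teff cells.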

How the results depend on the processing

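Between IgG Treg and Teff cells, quantile normalization called 1 member, with 502 probe sets of the array called higher and 423 lower. The actin ratio as covariate called 86 probe sets over the array and the joint fit 502, against 831. Leaving out 1 array called 0 to 3 members and 450 to 1000 probe sets. Between anti-ICOS Treg and Teff cells the run block called 15 probe sets, and leaving out 1 array called 0 to 12. The replicate block changed no call (Fos -0.63). Its numbers met the rule for pairing, but only replicate 1 shared a run between the groups, so pairing is not shown. With the actin ratio Nr4a1 was 0.0073. Between anti-ICOS and IgG Treg cells the run block called 1 member and 3 probe sets, leaving out 1 array called 0 to 35, and Egr2 was -0.10 in the joint fit with the run as block. Between anti-ICOS and IgG Teff cells, median centring called 1870 probe sets (28 higher, 1842 lower), and the trended robust fit 1. In mesenteric nodes quantile normalization, the actin ratio and the replicate block each called 1 member. Quantile normalization called 580 probe sets of the array higher and 885 lower, and the replicate block called 832. Leaving out 1 array gave 0 to 3 members and 743 to 1532 probe sets. In peripheral nodes the dim filter called 2 members, the run block 3 and the replicate block 3, and the actin ratio 267 probe sets, with Jun at -0.023; leaving out 1 array gave 1 to 2 and 531 to 1462. Between sites in CD25+ cells the actin ratio called 5 probe sets and leaving out 1 array 2 to 21; in CD25- cells the actin ratio called 1 member, and leaving out 1 array 0 to 2 members and 36 to 55 probe sets. The site by CD25 test called 2 probe sets in the trended robust fit, 0 with the dim filter and 2 with the replicate block, and 1 to 2 with 1 array left out. The Treg contrast between tissues called 56 with the actin ratio, and 0 to 1 members and 160 to 449 probe sets with 1 array left out. Pancreatic Treg against node CD25+ cells gave 1463 with the dim filter, 1194 with the actin ratio and 1955 to 3282 (2 to 3 members) with 1 array left out; Teff against CD25- cells gave 1878 with the dim filter and 2524 to 3329 (3 to 4 members). The dim filter and the fits with fewer arrays test fewer features or samples, and the cause of the other changes was not tested. Member counts given here without a count over all probe sets cannot be set against that background.

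The numbers in the other groups do not meet the rule for pairing, so their replicate block shows a shared number only. In mesenteric nodes it gave Egr1 at -0.64 (limma, adjusted p = 0.0632), Egr2 at -0.46 (0.147) and Nr4a1 at 0.70 (0.0223). Of 91 gene-by-comparison differences, 42 were under 1 SE; over their 418 leave-one-out and 227 other fits the sign changed in 70 and 19 and the call in 0. The 49 at or above 1 SE changed sign in 0 leave-one-out and 3 other fits. Levels near the array background limit what the dim Jun probe set can show.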
